A study of Homo sapiens with 8 samples.

Results

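The transcription factors and markers of the epithelial-mesenchymal transition (EMT) were followed in HEK293T cells and in their knockout derivatives. The set comprised 9 genes: the factors SNAI1, SNAI2, TWIST1, TWIST2, ZEB1, ZEB2 and PRRX1, and the mesenchymal markers VIM and CDH2. They were found by gene symbol among the 60617 genes of the deposited count table, and all 9 were among the 17527 genes that passed the filter on low counts. The genes are known EMT factors and markers, chosen by name with earlier results of these data in view, among them the low counts of SNAI2 and TWIST1 in sgKDM5C cells. Their changes are therefore given as descriptions, with standard errors and without p-values.

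HEK293T is a human embryonic kidney line, labelled as epithelial. The 4 groups were the wild-type line (WT) and lines labelled sgKDM5C, sgKDM6A and sgKMT2B, each a knockout of the named chromatin enzyme, with 2 libraries a group (8 in all). KMT2B is a histone H3K4 methyltransferase, KDM5C a demethylase of the same residue, and KDM6A an H3K27 demethylase. All groups grew in the same serum-containing medium, and the labels name no further treatment. They do not say whether a knockout line is 1 clone or a pool, nor whether replicates came from separate cultures, so standard errors and p-values reflect the spread between libraries alone and may be technical.

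The EMT is the programme by which epithelial cells loosen their junctions and take on a motile, mesenchymal form, in development, wound repair and tumour spread. SNAI and ZEB proteins are zinc finger repressors that bind E-box motifs in epithelial genes such as CDH1 (E-cadherin), TWIST proteins are basic helix-loop-helix factors, and PRRX1 is a homeobox factor of mesenchyme. VIM encodes the intermediate filament vimentin and CDH2 encodes N-cadherin, whose rise at the expense of E-cadherin is the classical cadherin switch.

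The libraries held 15868353 (WT replicate 2) to 27591724 counts (sgKDM6A replicate 2), and 3 counts in a library corresponded to 0.107 to 0.195 CPM, the counts of a gene scaled to a common library size. Each targeted gene had its lowest level in the line named after it. KDM6A was at 54.2 and 61.2 CPM in WT and at 10.3 and 11.5 CPM in sgKDM6A. KMT2B was at 146 and 137 CPM in WT and at 63.0 and 75.5 CPM in sgKMT2B. KDM5C was at 440 and 471 CPM in WT and at 331 and 312 CPM in sgKDM5C. It also lay below both WT libraries in sgKDM6A (379 and 387 CPM) and sgKMT2B (395 and 390 CPM). So did KMT2B in sgKDM5C (113 and 128 CPM) and sgKDM6A (124 and 123 CPM). As fitted folds against WT, KDM6A, KMT2B and KDM5C were 5.26-fold, 2.04-fold and 1.42-fold lower in the line named after each. Transcripts of each targeted gene were still counted in its knockout. Of the kidney lineage markers, SIX2, WT1, PAX2, EMX2, SALL1 and JAG1 were tested, whereas CDH16 had 0 counts in every library and PAX8 and LHX1 were near 0. The summed level of the kidney lineage markers was 139 to 183 CPM over all libraries. The leukocyte marker CD3E and the fibroblast marker FAP were at 0 counts in every library, PTPRC had 2 counts in 1 library and none in the others, the 7 leukocyte markers summed to 3.25 to 7.68 CPM, and the 6 endothelial markers summed to 0.510 to 1.89 CPM. The adrenal or neural markers, of which TH had 0 counts in every library, summed to 49.4 to 51.3 CPM in WT, 59.3 to 69.2 CPM in sgKDM5C, 67.6 to 75.0 CPM in sgKDM6A and 20.1 to 20.4 CPM in sgKMT2B. The part of these markers in the results was not tested.

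SNAI2, also known as Slug, had the widest span of the 9 genes. It lies on chromosome 8 (GRCh38, 48917604 to 48921740). It was at 17.0 and 23.3 CPM in the WT libraries, 0.728 and 1.02 CPM in sgKDM5C, 9.55 and 9.58 CPM in sgKDM6A, and 78.3 and 85.8 CPM in sgKMT2B. No group overlapped another, and the order from high to low was sgKMT2B, WT, sgKDM6A and sgKDM5C. The threshold used throughout is an adjusted p under 0.05 in edgeR's quasi-likelihood test over all genes tested, and a gene past it is said to be called. Against WT, SNAI2 was lower by 22.8-fold in sgKDM5C (log2 change -4.51, SE 0.22) and by 2.09-fold in sgKDM6A (log2 change -1.07, SE 0.17), and higher by 4.10-fold in sgKMT2B (log2 change 2.03, SE 0.16). Between the extreme lines, sgKMT2B stood 93.5-fold above sgKDM5C (log2 difference of sgKDM5C from sgKMT2B -6.55, SE 0.22). The low end rested on 20 and 27 counts, above the 3 counts taken as the floor.

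SNAI1, the founding Snail repressor (chromosome 20, 49982999 to 49988886), was a low transcript in every library. It was at 2.69 and 2.92 CPM in WT, 2.26 and 2.69 CPM in sgKDM5C, 2.18 and 3.04 CPM in sgKDM6A, and 1.12 and 1.89 CPM in sgKMT2B. The WT, sgKDM5C and sgKDM6A libraries overlapped, and the sgKMT2B libraries lay below all others. The sgKMT2B difference from WT was a log2 change of -0.89 (SE 0.34), which rests on 28 and 48 counts in sgKMT2B and did not pass the threshold. It passed without sgKMT2B replicate 2 (log2 change -1.31). SNAI2 and SNAI1 thus stood at opposite ends in sgKMT2B, one with its highest and the other with its lowest values.

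**Figure D1:**
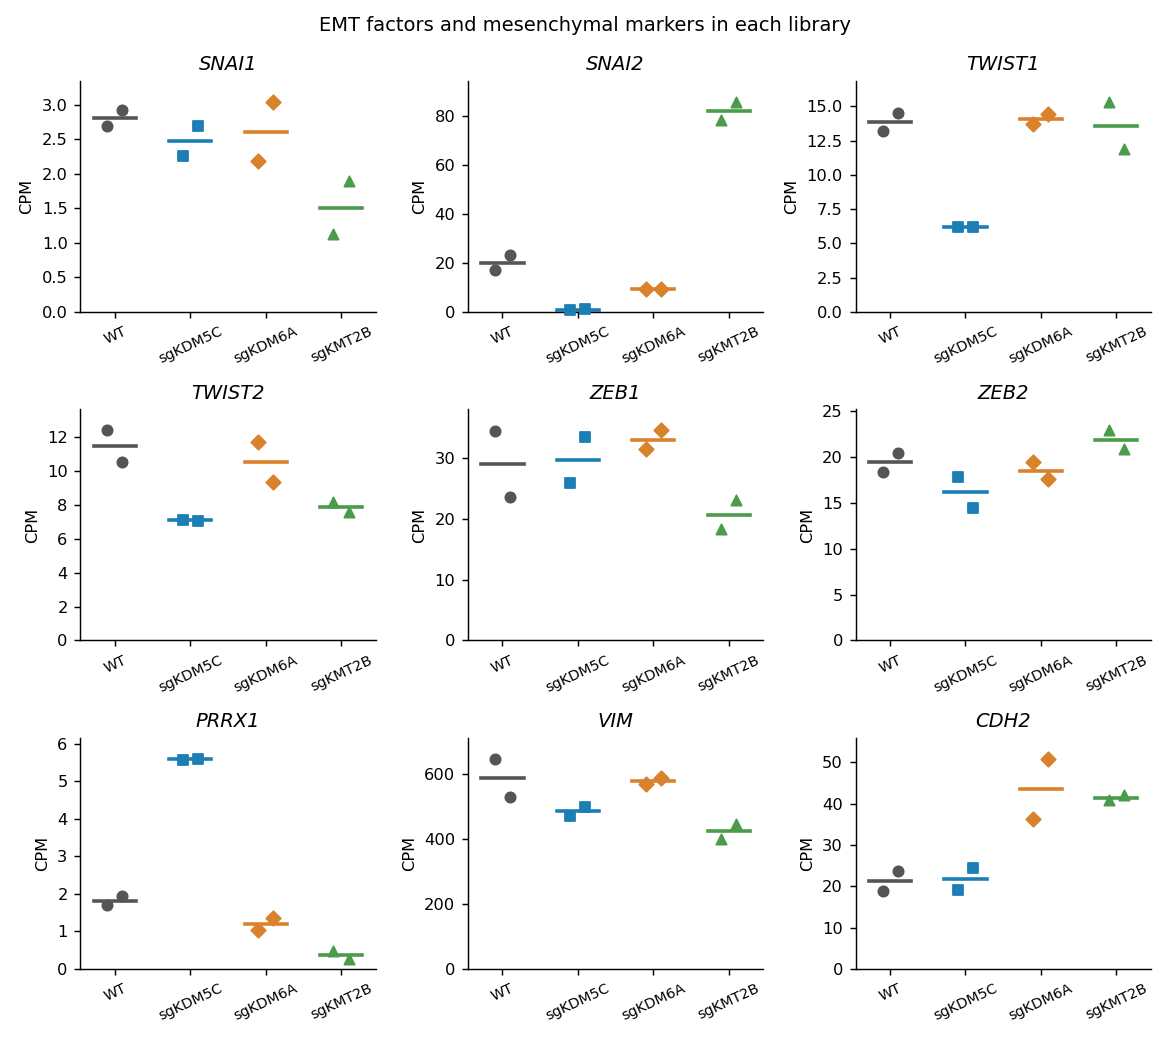
Level of each of the 9 genes in CPM (linear axes from 0), with 1 point for each library and a line at the mean of the 2 libraries of a group. SNAI2 reached 78.3 and 85.8 CPM in sgKMT2B and was at 0.728 and 1.02 CPM in sgKDM5C, while PRRX1 was highest in sgKDM5C and lowest in sgKMT2B.

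TWIST1, a helix-loop-helix factor of mesoderm (chromosome 7, 19020991 to 19117672), was lower in sgKDM5C and overlapped between the other groups. Its levels were 13.2 and 14.5 CPM in WT, 6.19 and 6.21 CPM in sgKDM5C, 13.7 and 14.4 CPM in sgKDM6A, and 15.3 and 11.9 CPM in sgKMT2B. Both sgKDM5C libraries lay below the other 6, which overlapped among themselves. The fitted log2 change against WT was -1.16 (SE 0.18) in sgKDM5C, a 2.23-fold lower level, and 0.02 (SE 0.17) in sgKDM6A and -0.03 (SE 0.17) in sgKMT2B.

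TWIST2 (chromosome 2, 238848032 to 238910543), the shorter paralogue also called Dermo1, was lower than WT in sgKDM5C and sgKMT2B. It was at 12.4 and 10.5 CPM in WT, 7.10 and 7.08 CPM in sgKDM5C, 11.7 and 9.36 CPM in sgKDM6A, and 8.16 and 7.57 CPM in sgKMT2B. The log2 change was -0.70 (SE 0.18) in sgKDM5C, -0.13 (SE 0.18) in sgKDM6A and -0.55 (SE 0.18) in sgKMT2B. These TWIST2 differences depended on single libraries: that in sgKDM5C did not pass the threshold without WT replicate 1 (log2 change -0.57), sgKDM5C replicate 1 (-0.70) or sgKDM5C replicate 2 (-0.71). That in sgKMT2B did not pass without WT replicate 1 (-0.42), sgKMT2B replicate 1 (-0.60) or sgKMT2B replicate 2 (-0.49), nor with no filter on low counts (-0.54).

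PRRX1, a homeobox factor (chromosome 1, 170662728 to 170739419), spanned the second widest range. Its levels were 1.69 and 1.95 CPM in WT, 5.57 and 5.60 CPM in sgKDM5C, 1.03 and 1.36 CPM in sgKDM6A, and 0.482 and 0.276 CPM in sgKMT2B. The 4 groups did not overlap. Against WT, PRRX1 was 3.08-fold higher in sgKDM5C (log2 change 1.62, SE 0.31), lower in sgKDM6A by a log2 change of -0.59 (SE 0.33) that did not pass the threshold, and 4.74-fold lower in sgKMT2B (log2 change -2.24, SE 0.39). The sgKMT2B libraries held 12 and 7 counts of PRRX1 against 153 and 148 in sgKDM5C. Between these lines the log2 difference was 3.87 (SE 0.36), higher in sgKDM5C, whereas that of SNAI2 was -6.55, lower in sgKDM5C. The knockout with the lowest SNAI2 was thus the one with the highest PRRX1, and the one with the highest SNAI2 had the lowest PRRX1. The WT and sgKDM6A groups did not continue this order, since WT was above sgKDM6A for both genes.

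**Figure D2:**
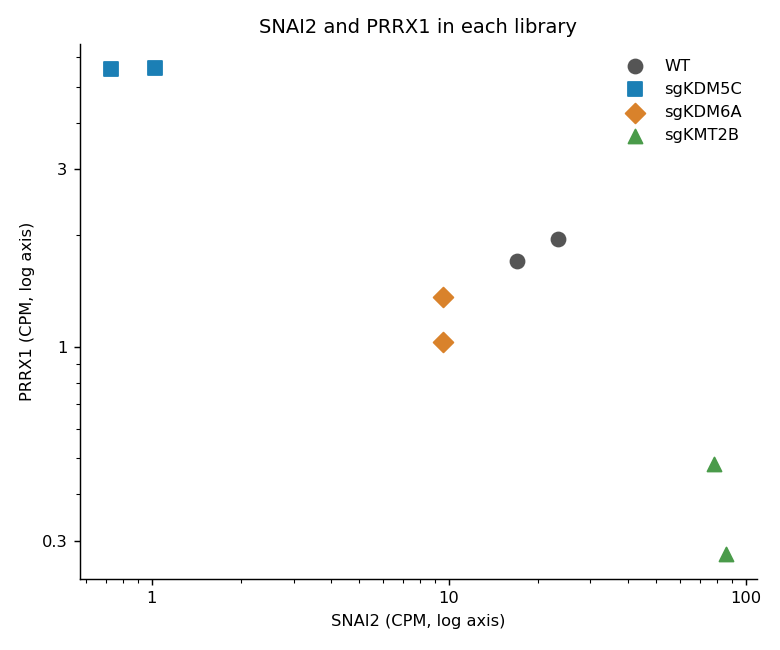
PRRX1 level against SNAI2 level (CPM, both axes logarithmic), 1 point for each of the 8 libraries, coloured by group. The sgKDM5C libraries sit at the top left, with PRRX1 at 5.57 and 5.60 CPM, and the sgKMT2B libraries at the bottom right, with PRRX1 at 0.482 and 0.276 CPM.

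ZEB1 and ZEB2, large repressors with a zinc finger cluster at each end, passed the threshold against WT in none of the 3 knockouts. ZEB1 (chromosome 10, 31318495 to 31529814) was at 34.5 and 23.7 CPM in WT, 26.0 and 33.6 CPM in sgKDM5C, 31.6 and 34.6 CPM in sgKDM6A, and 18.4 and 23.1 CPM in sgKMT2B. The WT libraries spanned those of sgKDM5C and nearly those of sgKDM6A, and the sgKMT2B libraries lay below all others. The fitted log2 change was 0.02 (SE 0.19) in sgKDM5C, 0.18 (SE 0.18) in sgKDM6A and -0.50 (SE 0.19) in sgKMT2B. In sgKMT2B, ZEB1 passed the threshold with DESeq2 (-0.49), with no filter on low counts (-0.49) and without WT replicate 2 (-0.74).

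ZEB2 (chromosome 2, 144364364 to 144524583) was at 18.4 and 20.4 CPM in WT, 17.8 and 14.5 CPM in sgKDM5C, 19.4 and 17.6 CPM in sgKDM6A, and 22.9 and 20.9 CPM in sgKMT2B. Its groups stood within 1.36-fold of each other in their means, the narrowest span of the 9 genes. The log2 change was -0.26 (SE 0.15) in sgKDM5C, -0.07 (SE 0.15) in sgKDM6A and 0.18 (SE 0.15) in sgKMT2B.

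The miR-200 family and miR-205 are known to repress ZEB1 and ZEB2 in epithelial cells, and ZEB proteins repress the miR-200 loci in return. Mature miRNAs were not measured by these poly(A) libraries, but the host transcripts of 2 of the loci were in the count table. MIR200CHG, the host of miR-200c and miR-141, and MIR205HG, the host of miR-205, had 0 counts in all 8 libraries, which allows up to 0.107 to 0.195 CPM by library (counting error only). The mature sequences made from these loci (RefSeq, GRCh38.p14) are shown because they are the known counterpart of the ZEB genes, with the seed, bases 2 to 8, in capitals. None of the 3 shares its whole seed with another.
hsa-miR-200c-3p: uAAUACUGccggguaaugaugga
hsa-miR-141-3p: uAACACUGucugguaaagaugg
hsa-miR-205-5p: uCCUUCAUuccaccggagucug

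VIM (chromosome 10, 17228259 to 17237593) had the highest level of the 9 genes per kilobase of exon. It was at 647 and 530 CPM in WT, 472 and 499 CPM in sgKDM5C, 570 and 589 CPM in sgKDM6A, and 400 and 447 CPM in sgKMT2B. The sgKDM5C and sgKMT2B libraries lay below both WT libraries, and the sgKDM6A libraries lay between them. The log2 change was -0.28 (SE 0.10) in sgKDM5C, -0.02 (SE 0.10) in sgKDM6A and -0.47 (SE 0.10) in sgKMT2B, a 1.39-fold lower level in the last. VIM in sgKMT2B did not pass without sgKMT2B replicate 1 (log2 change -0.39), and in sgKDM5C it passed without WT replicate 2 (-0.43) and with no filter on low counts (-0.28).

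CDH2 (chromosome 18, 27950966 to 28177446) was higher in sgKDM6A and sgKMT2B and overlapped WT in sgKDM5C. Its levels were 18.9 and 23.7 CPM in WT, 19.0 and 24.3 CPM in sgKDM5C, 36.2 and 50.8 CPM in sgKDM6A, and 40.8 and 42.0 CPM in sgKMT2B. All 4 libraries of sgKDM6A and sgKMT2B lay above all 4 of WT and sgKDM5C. The log2 change was 1.04 (SE 0.18) in sgKDM6A, a 2.06-fold higher level, and 0.97 (SE 0.18) in sgKMT2B, a 1.96-fold higher level. In sgKDM5C it was 0.03 (SE 0.18). The 3 comparisons share the WT libraries, and the direct log2 difference of sgKDM6A from sgKMT2B was 0.07 (SE 0.17).

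**Figure D3:**
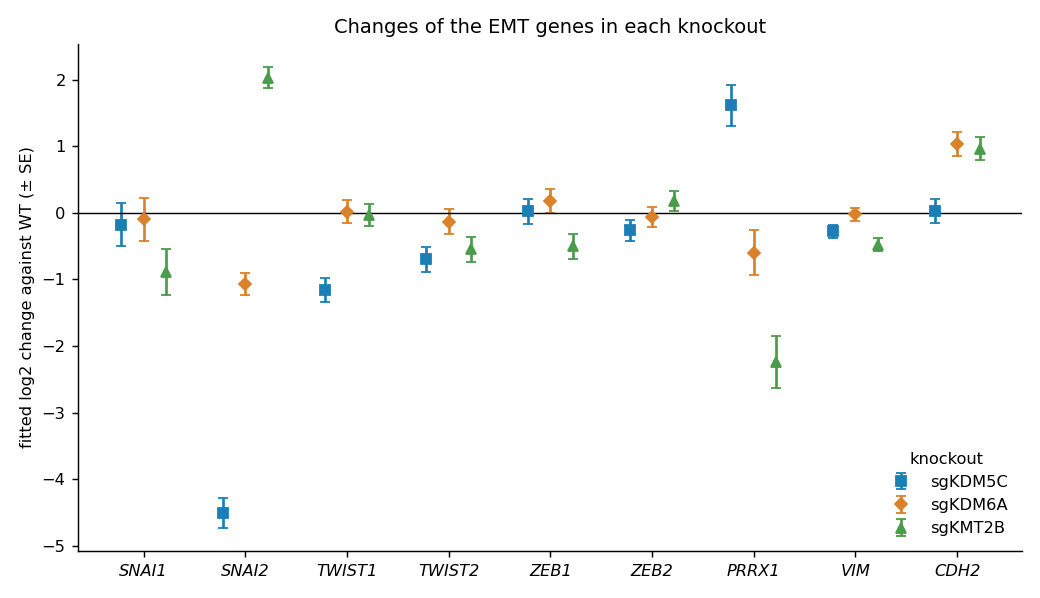
Fitted log2 change against WT of each gene in the 3 knockouts, with bars of 1 SE. SNAI2 is at -4.51, -1.07 and 2.03 and PRRX1 at 1.62, -0.59 and -2.24 in sgKDM5C, sgKDM6A and sgKMT2B, while the ZEB1 and ZEB2 points lie between -0.50 and 0.18.

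In sgKDM5C, 4 of the 9 genes were called (PRRX1 up, SNAI2, TWIST1 and TWIST2 down), beside 22.6% of all genes. In sgKDM6A, 2 of 9 were called (CDH2 up and SNAI2 down), beside 27.2%. In sgKMT2B, 5 of 9 were called (SNAI2 and CDH2 up, TWIST2, PRRX1 and VIM down), beside 28.1%, and 3 of 9 without sgKMT2B replicate 1. Libraries of knockout and WT did not overlap for 6, 3 and 8 of the 9 genes in sgKDM5C, sgKDM6A and sgKMT2B, beside 60.7%, 63.5% and 64.3% of all genes. Since the genes were chosen with these comparisons known, nothing is read from these counts. The median log2 change of the 9 genes was -0.26, -0.07 and -0.47 in the same order, beside 0.02, 0.01 and 0.00 over all genes tested. Called genes lay in both directions in each knockout.

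Between sgKDM5C and sgKDM6A, 5 of the 9 genes were called, with PRRX1 higher and SNAI2, TWIST1, TWIST2 and CDH2 lower in sgKDM5C. Of all genes 19.8% were called in that comparison, 10.9% higher and 8.86% lower. The TWIST2 difference was not called in 8 of 15 alternative fits, among them those without either sgKDM5C library or without sgKDM6A replicate 1. VIM, not called there (log2 difference -0.25, SE 0.10), was called in 4 of the 15. Between sgKDM5C and sgKMT2B, 4 of 9 were called, with PRRX1 higher and SNAI2, TWIST1 and CDH2 lower in sgKDM5C, beside 22.1% of all genes (11.6% higher and 10.5% lower). ZEB1 (log2 difference 0.52, SE 0.19) and ZEB2 (-0.44, SE 0.15), not called there, were each called in 7 of the 15 alternative fits. For both genes these included DESeq2 and the fits without either WT library or without sgKDM5C replicate 1. Between sgKDM6A and sgKMT2B, 4 of 9 were also called, with ZEB1, PRRX1 and VIM higher and SNAI2 lower in sgKDM6A, beside 24.9% (12.4% higher and 12.5% lower). Each of the 3 higher genes lost its call when single libraries were left out: ZEB1 without sgKDM6A replicate 2 or sgKMT2B replicate 1, PRRX1 without sgKDM6A replicate 2 or sgKMT2B replicate 2, and VIM without sgKMT2B replicate 1. Libraries did not overlap for 6, 9 and 7 of the 9 genes in these pairs, beside 60.3%, 62.1% and 64.1% of all genes. SNAI2 was called in each pair of knockouts in all 15 alternative fits.

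Levels were also divided by the annotated exon length of each gene, which was 25058 bases for ZEB2 and 1686 for SNAI1. Transcript lengths in these cells were not measured, so the order of genes holds for annotated lengths only. Per kilobase of exon, VIM had the highest mean level in WT (114 ± 16.0 CPM per kb, SD, n = 2). Then came TWIST1 (6.82 ± 0.444), TWIST2 (6.10 ± 0.701), SNAI2 (5.94 ± 1.33), CDH2 (4.30 ± 0.683) and ZEB1 (3.36 ± 0.889). SNAI1 (1.66 ± 0.101), ZEB2 (0.775 ± 0.0560) and PRRX1 (0.221 ± 0.0220) followed. The neighbours TWIST1, TWIST2 and SNAI2 did not differ beyond their spread, nor did CDH2 and ZEB1. Among the factors in sgKMT2B, SNAI2 had the highest mean level, 24.2 ± 1.57 CPM per kb, followed by TWIST1 at 6.68 ± 1.20. In sgKDM5C, TWIST2 was at 3.77 ± 0.00997 CPM per kb, ZEB1 at 3.44 ± 0.621 and TWIST1 at 3.05 ± 0.00479, which for TWIST2 and ZEB1 is no difference beyond their spread, with SNAI2 at 0.258 ± 0.0611. In sgKDM6A, TWIST1 was at 6.91 ± 0.251 CPM per kb and TWIST2 at 5.61 ± 0.878.

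Levels of chromosomal neighbours were set beside these changes, for which tested genes averaging 5 CPM or more over the libraries were taken. ZEB1 and VIM both lie on the short arm of chromosome 10, whose 107 such genes had a median log2 change of -0.39 in sgKMT2B. There, ZEB1 was at -0.50 and the 28 genes within 5 Mb of it had a median of -0.48. VIM was at -0.47 and its 34 neighbours within 5 Mb had a median of -0.42. Relative to the median of the arm, ZEB1 was at -0.11 and VIM at -0.09 in sgKMT2B, and the part that the arm has in these changes was not tested.

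The called changes of SNAI2, PRRX1 and CDH2 were set beside their neighbours in the same way. SNAI2 was at -4.51 in sgKDM5C, where the 10 genes within 5 Mb ran from -0.86 to 0.12. In sgKMT2B it was at 2.03, where the same 10 genes ran from -0.19 to 0.73. In sgKDM6A, SNAI2 at -1.07 lay inside the range of its neighbours, -1.22 to 0.36, whose median was -0.17. PRRX1 was at -2.24 in sgKMT2B, where its 39 neighbours ran from -1.09 to 0.99 with a median of 0.27, and at 1.62 in sgKDM5C, where they ran from -0.66 to 0.98. CDH2 was at 1.04 in sgKDM6A, where its 24 neighbours ran from -0.79 to 0.83 and the long arm of chromosome 18 had a median of 0.32. In sgKMT2B, CDH2 at 0.97 lay inside the range of its neighbours, -0.66 to 1.26. SNAI1 was at -0.89 in sgKMT2B, where the long arm of chromosome 20 had a median of 0.40.

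**Figure D4:**
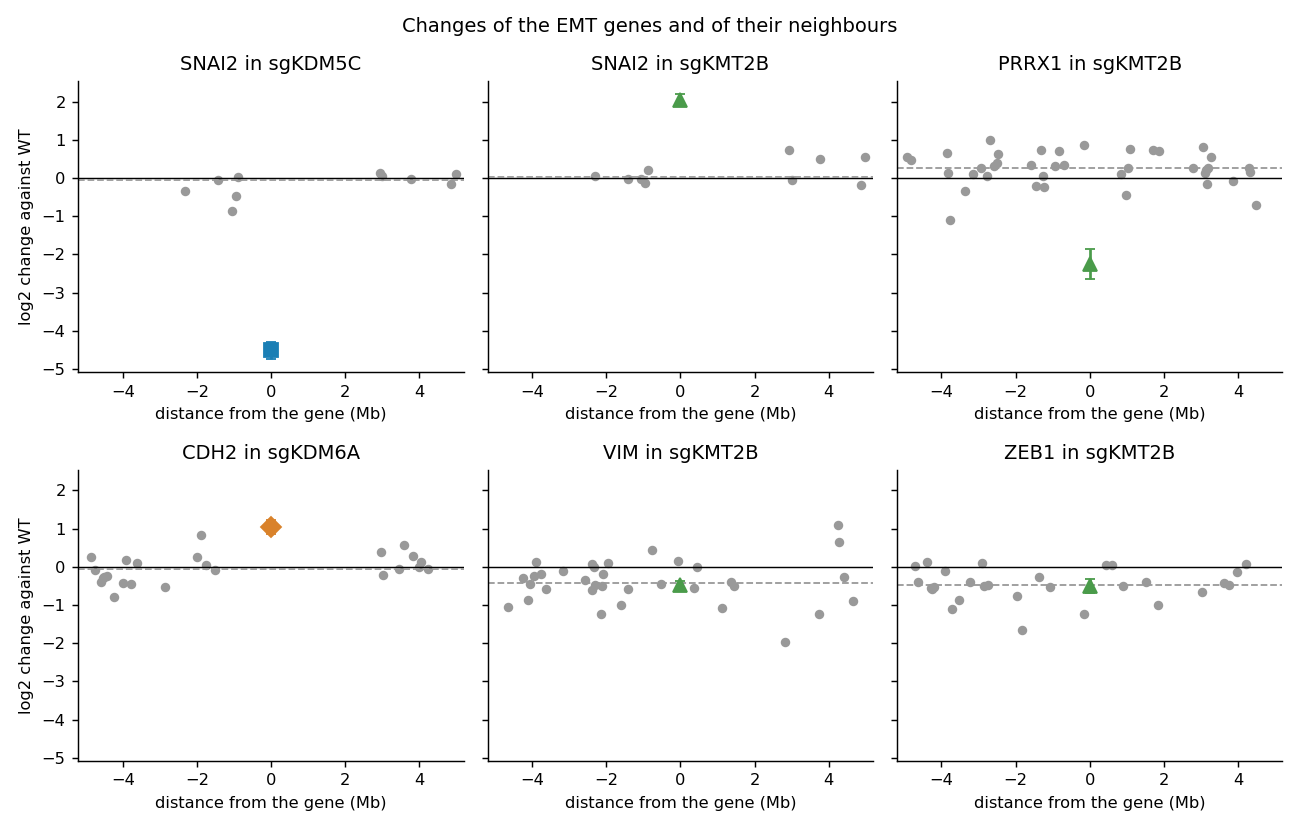
Fitted log2 change against WT of 6 gene and knockout pairs (coloured, with bars of 1 SE) and of tested genes averaging 5 CPM or more within 5 Mb (grey), by distance from the gene in megabases, with the neighbours' median as a dashed line. In the pairs drawn, SNAI2, PRRX1 and CDH2 lie outside the range of their neighbours, whereas VIM (-0.47, neighbours' median -0.42) and ZEB1 (-0.50, neighbours' median -0.48) lie within it.

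Antisense transcripts start beside 3 of the genes, and without a stated strand setting their reads cannot be told apart from those of the sense gene where they overlap. ZEB1-AS1 was at 9.48 ± 1.73 CPM in WT (SD, n = 2) and at 4.01 ± 0.846 CPM in sgKMT2B (log2 change -1.25, SE 0.25, adjusted p = 0.00277 by edgeR), where ZEB1 was at -0.50. VIM-AS1 stayed between 0.907 and 2.34 CPM, where VIM was at 400 CPM or more. ZEB2-AS1 had 1 count in 1 of the 8 libraries.

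SNAI and ZEB repressors bind the E-box CAGGTG, which reads CACCTG on the other strand. RefSeq promoter windows (GRCh38.p14, 250 bases before to 50 after the start site) were looked up for all of the genes but SNAI2. For 6 of the 9 genes, namely CDH2, PRRX1, TWIST2, VIM, ZEB1 and ZEB2, 13 windows were used. Either form of the motif occurred in 2 of these windows, both of ZEB1, and in 20.6% of 35116 windows of all genes. The wider E-box CANNTG, which includes these forms, occurred in 68.7% of all windows. The PRRX1 window and 1 of the CDH2 windows are shown because, of the 6 genes with a window used, these genes had the widest spans between lines. Of the 7 ZEB1 windows, 1 is shown because it holds the motif 3 times. Capitals mark CAGGTG or CACCTG, and the PRRX1 and CDH2 windows shown hold neither these letters nor CANNTG. The other CDH2 window (chr18:28036592-28036891, not shown) holds neither CAGGTG nor CACCTG but has 1 CANNTG.
PRRX1, chr1:170663881-170664180, plus strand: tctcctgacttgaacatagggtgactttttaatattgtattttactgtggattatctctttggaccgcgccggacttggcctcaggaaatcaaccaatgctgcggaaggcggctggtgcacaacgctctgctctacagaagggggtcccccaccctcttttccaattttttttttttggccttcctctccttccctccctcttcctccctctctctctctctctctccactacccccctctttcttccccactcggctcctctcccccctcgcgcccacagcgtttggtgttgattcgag
CDH2, chr18:28177081-28177380, minus strand: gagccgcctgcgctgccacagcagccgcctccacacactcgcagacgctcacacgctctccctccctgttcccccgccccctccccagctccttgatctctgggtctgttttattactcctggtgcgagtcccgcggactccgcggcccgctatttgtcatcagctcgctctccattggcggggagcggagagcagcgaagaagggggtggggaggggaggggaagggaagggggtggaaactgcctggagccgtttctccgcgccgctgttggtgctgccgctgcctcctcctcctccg
ZEB1, chr10:31318966-31319265, plus strand: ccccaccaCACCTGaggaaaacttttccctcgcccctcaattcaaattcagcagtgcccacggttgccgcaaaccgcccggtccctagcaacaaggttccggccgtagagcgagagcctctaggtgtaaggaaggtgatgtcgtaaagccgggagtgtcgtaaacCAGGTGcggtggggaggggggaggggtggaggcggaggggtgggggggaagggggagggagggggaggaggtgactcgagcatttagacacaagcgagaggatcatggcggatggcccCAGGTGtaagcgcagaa

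E-cadherin, the classical target repressed by SNAI and ZEB factors, was lower than WT in all 3 knockouts. CDH1 was at 14.3 ± 2.19 CPM in WT (SD, n = 2), 5.68 ± 1.33 CPM in sgKDM5C, 3.92 ± 1.79 CPM in sgKDM6A and 4.95 ± 0.0738 CPM in sgKMT2B. It fell in sgKDM5C (log2 change -1.33, SE 0.27, adjusted p = 0.00433 by edgeR), where SNAI2 was 22.8-fold lower. In sgKDM6A it fell by 1.86 on the log2 scale (SE 0.28, adjusted p = 0.00042 by edgeR), where SNAI2 was 2.09-fold lower and CDH2 higher. In sgKMT2B it fell by 1.53 (SE 0.28, adjusted p = 0.00128 by edgeR), where SNAI2 was 4.10-fold higher and CDH2 higher. These comparisons share the WT libraries.

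The other genes of the programme were taken from 8 lists, with 201 genes in the table and 161 tested, none of them among the 9. In sgKDM5C, 21 rose and 28 fell, beside 11.1% and 11.5% of all genes. In sgKDM6A, 19 rose and 55 fell, beside 12.6% and 14.6%. In sgKMT2B, 26 rose and 46 fell, beside 13.7% and 14.5%. These shares of all genes also stand beside the counts of each single list below. The lists were chosen with earlier results of these data known, so nothing is read from their counts. The median log2 change of the 161 genes was -0.08, -0.20 and -0.01 in the same order. The number called in sgKDM5C went from 49 to 27 without WT replicate 2 and to 25 without sgKDM5C replicate 1, and in sgKDM6A from 74 to 49 without sgKDM6A replicate 1.

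Genes that mesenchymal cells use for matrix, adhesion and proteolysis were called in both directions in each knockout. Of 33 tested, 5 rose and 10 fell in sgKDM5C (4 fell without sgKDM5C replicate 1 and 2 rose without WT replicate 2), 4 rose and 19 fell in sgKDM6A (2 rose without WT replicate 2), and 9 rose and 12 fell in sgKMT2B (6 fell without sgKMT2B replicate 1). Their median log2 change was -0.25, -1.15 and 0.13. The collagen gene COL3A1 was at 1.51 ± 0.26 CPM in WT (SD, n = 2) and rose to 43.2 ± 4.09 CPM in sgKMT2B (log2 change 4.86, SE 0.24, adjusted p = 2.72e-08 by edgeR). In sgKDM6A it fell by 3.91 (SE 0.48) on the log2 scale, to 2 and 3 counts, and in sgKDM5C its log2 change was 0.00 (SE 0.28). SPARC, a matricellular glycoprotein, also rose in sgKMT2B (log2 change 1.57, SE 0.14) and fell in sgKDM5C (log2 change -3.00, SE 0.17). In sgKDM6A it had 2 and 1 counts. CCN1, a matricellular growth regulator, fell in all 3 knockouts, by 2.45, 3.39 and 2.75 on the log2 scale. The matrix cross-linking enzyme LOX fell in sgKMT2B by 2.27 (SE 0.21), and tenascin C (TNC) fell in sgKDM5C by 2.27 (SE 0.35) on the log2 scale. Fibronectin (FN1), another standard EMT marker, was at 72.0 ± 8.09 CPM in WT and fell in sgKDM6A (log2 change -0.98, SE 0.14) and sgKMT2B (log2 change -0.76, SE 0.14). In sgKDM5C its log2 change of -0.65 (SE 0.14) passed the threshold with all libraries and not without sgKDM5C replicate 1 (log2 change -0.59). The summed level of 10 fibroblast markers, some of them also on this list, was 321 CPM in both WT libraries, 340 to 361 CPM in sgKDM5C, 137 to 145 CPM in sgKDM6A and 352 to 395 CPM in sgKMT2B, most of it from the fibulin gene FBLN1. Its part in the list's counts was not tested. All 8 libraries came from HEK293T cells or their knockout derivatives, and bulk levels cannot tell fewer expressing cells from less RNA per cell.

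Epithelial junction and keratin genes had more lower than higher calls in each knockout. Of 28 tested, 2 rose and 7 fell in sgKDM5C (0 rose and 2 fell without WT replicate 2), 0 rose and 16 fell in sgKDM6A, and 2 rose and 10 fell in sgKMT2B, with medians of -0.25, -0.57 and -0.73. The simple-epithelium keratin KRT8 fell by 3.49 (SE 0.11) on the log2 scale in sgKDM6A, while in sgKMT2B it rose from 60.6 ± 1.02 to 256 ± 12.1 CPM (SD, n = 2, log2 change 2.08, SE 0.10, adjusted p = 1.83e-08 by edgeR). The tight junction scaffold gene PATJ fell in sgKDM6A (log2 change -1.14, SE 0.16) and in sgKMT2B (log2 change -1.39, SE 0.16), and plakoglobin (JUP) fell in sgKDM6A (log2 change -1.22, SE 0.10). The desmosome gene PKP2 fell in sgKMT2B by 1.53 (SE 0.15) on the log2 scale. Of 18 factors that oppose the EMT, 8 passed the filter on low counts, and 2 rose and 1 fell in sgKDM5C (1 rose without sgKDM5C replicate 1), 0 rose and 1 fell in sgKDM6A (0 fell without WT replicate 2), and 0 rose and 3 fell in sgKMT2B. The 2 that rose in sgKDM5C were the RNA-binding protein gene RBM47 (log2 change 1.25, SE 0.28) and FOXA1 (log2 change 0.63, SE 0.14), the latter not called without sgKDM5C replicate 1. The splicing regulator ESRP2 fell in sgKMT2B from 27.7 ± 0.142 to 10.4 ± 1.04 CPM (log2 change -1.41, SE 0.14), and the pioneer factor FOXA1 fell there by 1.85 (SE 0.16) on the log2 scale. KLF4 fell in sgKDM5C (log2 change -1.22, SE 0.21) and in sgKMT2B (log2 change -1.11, SE 0.21), and in sgKDM6A by 0.67 (SE 0.20), a call lost without WT replicate 2 or either sgKDM6A library.

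**Figure D5:**
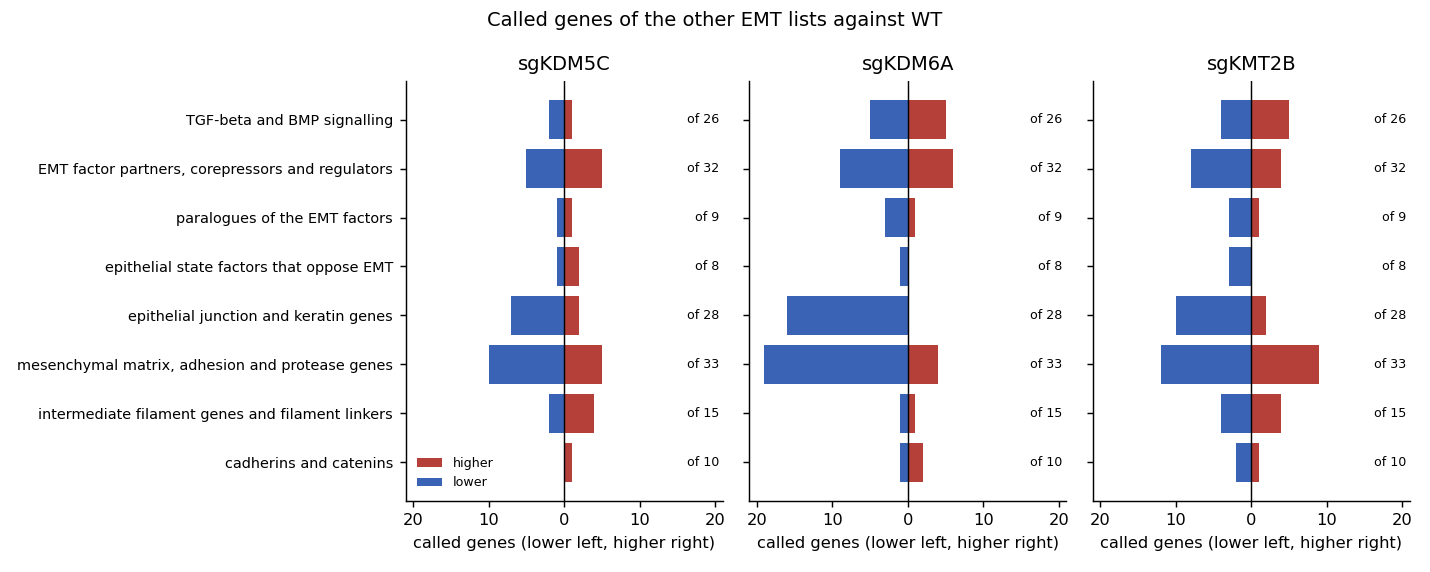
Number of genes of 8 EMT lists called lower (left of 0) and higher (right of 0) against WT in each knockout, with the number tested at the right edge. In sgKDM6A, 19 of 33 mesenchymal and 16 of 28 epithelial genes were called lower, beside 14.6% of all genes.

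Among upstream signalling genes, calls also lay in both directions. TGF-beta is a main inducer of SNAI and ZEB genes, and of 26 tested TGF-beta and BMP genes, 1 rose and 2 fell in sgKDM5C, 5 rose and 5 fell in sgKDM6A (3 fell without WT replicate 2), and 5 rose and 4 fell in sgKMT2B (1 rose and 2 fell without sgKMT2B replicate 1). The ligand gene TGFB1 fell in sgKMT2B from 143 ± 15.2 to 65.6 ± 8.85 CPM (SD, n = 2, log2 change -1.13, SE 0.12, adjusted p = 2.45e-05 by edgeR), and the receptor gene TGFBR2 fell there by 1.21 (SE 0.23) on the log2 scale. The inhibitory SMAD7 rose in sgKDM6A (log2 change 1.17, SE 0.20). Of 32 partners, corepressors and regulators, 5 rose and 5 fell in sgKDM5C (2 fell without sgKDM5C replicate 1 and 3 rose without WT replicate 2), 6 rose and 9 fell in sgKDM6A (3 rose without sgKDM6A replicate 1), and 4 rose and 8 fell in sgKMT2B. SOX4, a factor placed upstream of the EMT, fell in all 3, by 1.68, 1.56 and 1.61 on the log2 scale (SE 0.20, 0.19 and 0.20). AJUBA, a LIM protein that binds SNAI repressors, rose in sgKDM5C (log2 change 0.75, SE 0.13) and sgKMT2B (log2 change 1.09, SE 0.13). TCF12, a helix-loop-helix partner of TWIST proteins, fell in sgKDM6A (log2 change -1.09, SE 0.13).

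Relatives of the EMT genes were counted in the same way. Of 9 tested paralogues of the factors, 1 rose and 1 fell in sgKDM5C, 1 rose and 3 fell in sgKDM6A (1 fell without WT replicate 2), and 1 rose and 3 fell in sgKMT2B (0 rose without WT replicate 1). HAND1, a helix-loop-helix relative of TWIST, fell by 0.97 (SE 0.14) in sgKDM6A and by 1.02 (SE 0.14) in sgKMT2B on the log2 scale, and by 0.60 (SE 0.14) in sgKDM5C, where it did not pass without sgKDM5C replicate 1 (adjusted p = 0.0683 by edgeR). Of 15 intermediate filament and linker genes, 4 rose and 2 fell in sgKDM5C (1 rose without WT replicate 2), 1 rose and 1 fell in sgKDM6A, and 4 rose and 4 fell in sgKMT2B. Nestin (NES), the filament partner of vimentin in progenitor cells, rose in sgKMT2B from 7.44 ± 2.35 to 29.2 ± 1.43 CPM (SD, n = 2, log2 change 1.99, SE 0.21), while VIM fell there. The neurofilament gene NEFM had 135 and 88 counts in WT, 0 in all libraries of sgKDM5C and sgKDM6A, and 0 and 2 in sgKMT2B. Of 10 tested cadherin, catenin and related adhesion genes, 1 rose and 0 fell in sgKDM5C, 2 rose and 1 fell in sgKDM6A (1 rose and 0 fell without WT replicate 2), and 1 rose and 2 fell in sgKMT2B. The adhesion gene NCAM1 rose in sgKDM5C (log2 change 0.94, SE 0.19) and sgKDM6A (log2 change 1.57, SE 0.19) and fell in sgKMT2B (log2 change -1.04, SE 0.21), and CDH10 rose in sgKMT2B from 3 and 0 counts in the WT libraries to 92 and 60.

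The genes whose levels ran most like those of each EMT gene over the 8 libraries are given as a description (Pearson r of log2 CPM, over protein-coding genes averaging 1 CPM or more). For SNAI2 these were ATG9B (r = 0.952) and KRTAP19-1 (r = 0.921), among 248 genes with a comparable spread. For PRRX1 they were THBD (r = 0.992) and DPP4 (r = 0.978), among 931. For TWIST1 they were SGK1 (r = 0.977) and TCN2 (r = 0.974), and for TWIST2 NARS2 (r = 0.966) and SPINT2 (r = 0.965). For CDH2 they were SLITRK3 (r = 0.955) and MATCAP1 (r = 0.954). For VIM they were RPL21 (r = 0.988) and GTF2F2 (r = 0.973), both on chromosome 13, and for ZEB1 PCGF5 (r = 0.969), also on chromosome 10, and SKIL (r = 0.963). For SNAI1 they were EFR3B (r = 0.974) and PAQR8 (r = 0.970), and for ZEB2 ALDH1B1 (r = 0.989) and TOR3A (r = 0.976). The 8 points are 4 groups of 2 replicates and are not independent.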

How the data were processed

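Poly(A) RNA of 8 HEK293T libraries was sequenced as read pairs, per the labels' protocols. The authors deposited raw read counts per Ensembl gene, made with STAR and HTSeq 0.11.2 on GRCh38, per the submitters' processing notes. The strand setting and the gene annotation behind the counts were not given in the sources used here. Groups and replicate numbers came from the labels. Counts were fitted with edgeR 4.0.16 in R 4.3.3 (glmQLFit and glmQLFTest, TMM factors, filterByExpr) over all 8 libraries with 1 coefficient per group, and p-values were adjusted over 17527 genes by the Benjamini-Hochberg method within each comparison. CPM were computed from the counts in tested genes with TMM-scaled library sizes. Positions and exon lengths are from GENCODE release 29 on GRCh38. Replicates differed by more than sampling noise (chi-square per degree of freedom 7.88 to 15.8). The fit was tested on simulated data, with changes set for sgKDM5C against WT in 50 genes at each size. It recovered 24%, 62%, 80% and 90% of log2 changes of 0.5, 1, 2 and 3, and called 7 unchanged genes.

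The 9 genes and all lists were chosen with earlier results of these data known. Adjusted p-values printed for genes of the lists are therefore descriptions as well. Named genes were the 9, the targeted genes, antisense neighbours, up to 4 called genes per list and comparison with the smallest adjusted p, and the 2 protein-coding genes with the highest Pearson r to each of the 9 (mean of at least 1 CPM, SD not under 0.5 times that of the gene). FN1, MIR200CHG and MIR205HG are named outside that rule and were chosen after their values were seen. Normalization, filter, tool (DESeq2 1.42.0), samples and the replicate block were varied. The values of some marker genes are not reported here.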

Additional observations from a re-analysis of the deposited data

How the results depend on the processing

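SNAI2 in all 3 knockouts, TWIST1 and PRRX1 in sgKDM5C, PRRX1 in sgKMT2B, and CDH2 in sgKDM6A and sgKMT2B kept their direction and their side of the threshold in all 15 alternative fits. Of 837 recomputed changes of the 9 genes, 57 moved by 1 SE or more and no called change turned its sign. List counts given without a bracket were not all stable when single libraries were left out. Among those that moved were the paralogues and the TGF-beta and BMP genes in sgKDM5C, and the filament genes in sgKDM6A. In sgKDM5C the number of called genes ran from 1841 to 3877 when 1 library was left out, and that of the other EMT genes from 25 to 49. In sgKDM6A these ranges were 2495 to 4711 and 49 to 74. In sgKMT2B they were 2372 to 4787 and 49 to 71, and 3 to 6 of the 9 genes were called. Where a group was left with 1 library, that library was assumed to vary like the other groups.

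The replicate numbers are shared between groups, but the labels do not say that they pair libraries. The correlation of replicate deviations with WT was 0.007, -0.02 and -0.0009 for sgKDM5C, sgKDM6A and sgKMT2B. Between knockouts it was 0.18 for sgKDM5C with sgKDM6A, 0.10 for sgKDM5C with sgKMT2B and 0.08 for sgKDM6A with sgKMT2B. With the replicate block, 4645, 5521 and 5576 genes were called, and 4, 2 and 6 of the 9 genes, SNAI1 in sgKMT2B (log2 change -0.93) being the addition. Depth limits SNAI1 and the low ends of SNAI2 and PRRX1, where single libraries hold as few as 28, 20 and 7 counts.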
